A study of Mus musculus with 61 samples.

Results

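MafA added to Pdx1 in the absence of Ngn3 was examined in 10 of the 32 samples of the study, 6 of cells carrying the Pdx1 and MafA reporters and 4 of cells carrying the Pdx1 reporter alone. The samples were chosen by their labels, as all those with one of these reporter combinations and no Ngn3 reporter, and they comprised 20 of 61 RNA sequencing libraries, 11 with MafA and 9 without. All came from ductal pancreatic organoids of adult C57BL/6 mice, three-dimensional cultures of duct cells, infected with separate lentiviruses for doxycycline-inducible GFP-Ngn3, LSSOrange-Pdx1 and tdTomato-MafA together with the transactivator, and induced for 8 days. The Ngn3 virus carried the wild-type protein (WT cultures) or a mutant lacking 6 phosphorylation sites (6SA cultures), and the cells compared here were sorted as negative for its GFP. Pdx1-only samples were replicates 1 and 2 of each culture at passage 2, and Pdx1-MafA samples were those and a replicate 3 at passage 5. Each library was made from a pool of 50 sorted cells, so a reporter and not the protein defined a group, and a change in the make-up of a pool cannot be told apart from a change in every cell. The labels do not say whether the replicates came from separate animals, so p-values measured the spread between these samples.

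MafA is a basic leucine zipper transcription factor of the large Maf family that binds Maf recognition elements and, in mature β-cells, activates insulin and genes of glucose sensing. Pdx1 is a homeodomain factor needed for pancreas development and β-cell identity. Ngn3 is the basic helix-loop-helix factor that starts endocrine differentiation from duct-lining progenitors, and neither of the other factors is known to start it alone. The comparison therefore asked what MafA changes in duct cells that carry the Pdx1 reporter but not that of the factor that initiates the endocrine programme.

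Library totals on genes ranged from 3079615 to 8862096 counts, and 15494 to 17357 genes were detected per library. Libraries differed by replicate number: mitochondrial counts were 3.52% to 6.61% of each replicate 1 library and 7.43% to 10.4% of each replicate 2 library. Neither library depth, genes detected, spike-in share nor mitochondrial share differed between the groups by an exact two-sided permutation test within cultures (p = 0.83, 0.9, 0.31 and 0.75). That test had only 100 arrangements here, so it cannot give a very small p. Duct markers were present in all 10 samples. Krt18 was at 2997 to 3958 CPM (counts scaled to 1000000 per sample) without MafA and 3626 to 4472 with it, Spp1 was at 6055 or more in every sample, and Sox9 at 44.4 or more. Acinar markers summed to at most 11.5 CPM over 20 genes, with 9 of them at 0 in all samples, and immune and endothelial markers to at most 37.7 CPM, with 9 at 0. Mesenchymal markers summed to 1591 to 2017 CPM without MafA and 1250 to 3021 with it. Their part in the results was not tested.

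Mafa transcripts were scarce even in cells sorted for the MafA reporter. They were at 0.306, 0.174 and 4.21 CPM in WT Pdx1-MafA replicates 1 to 3 and at 0.471, 1.44 and 0 CPM in the 6SA replicates, against 0.0901 CPM, a single count, in 1 Pdx1-only sample and 0 in the other 3. Mafa was higher with MafA in 4 of 4 pairs of the same culture and replicate number, by 0.78 on the log2(CPM + 1) scale on average over cultures, and the exact permutation test gave p = 0.13 (0.95 after adjustment over the 9 values tested). The 6SA replicate 3 library held no Mafa count, and 3 counts would have been 0.177 to 0.523 CPM in the Pdx1-MafA samples. The reporter label was thus not borne out by the gene count in every sample, and whether the counted gene model covers the viral transcript was not tested.

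Pdx1 was at 11.2 to 37.7 CPM without MafA and 14 to 36.4 CPM with it, and the means on the log2(CPM + 1) scale were 4.46 ± 0.81 (SD, n = 4) and 4.44 ± 0.57 (SD, n = 6), with an exact permutation p of 0.95. In the 5 samples with the MafA reporter alone Pdx1 was at 4.22 to 19.3 CPM, which overlaps the Pdx1-only samples. The Pdx1 count thus did not set these reporter labels apart either. Neurog3, the gene of Ngn3, was at most 0.787 CPM in any of the 10 samples, against 7.87 to 226 CPM in the 6 samples sorted for Ngn3 with Pdx1. No count of Ins1, Ins2 or Ppy was found in any of the 10 samples, and Gcg did not pass 0.337 CPM. Sst, the somatostatin gene, was at 1.80 to 13.6 CPM without MafA and 1.08 to 31.6 with it, and Iapp, which encodes the β-cell peptide amylin, at 0 to 46.5 and 0 to 8.67, the highest value of Iapp lying in Pdx1-only 6SA replicate 1. In 5 samples with all 3 factors Ins1 reached a median of 39.6 CPM.

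Across all genes the change with MafA was small beside the spread between samples. In the edgeR quasi-likelihood test of all 12 conditions, 0 of 24004 genes had an adjusted p below 0.05 for the mean of the WT and 6SA contrasts (0% called), 531 had an unadjusted p below 0.05, which was 2.21% of genes, and the lowest adjusted p was 0.999969. DESeq2 in the same design called 13 genes (0.0543% of those with an adjusted p), among them Gpx3, Ttr, Bmp2 and Clec2e. The other 9 had means of at most 5.44 CPM and counts in at most 6 of the 10 samples. The sets of genes whose 6 Pdx1-MafA samples all lay above or all below the 4 Pdx1-only samples held 54 genes (0.225%) and 72 genes (0.3%).

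Samples with the same replicate number, however, deviated together, and they are treated below as pairs. No label says that they were sorted from one culture, and libraries also differed by replicate number, as given above. Each culture had 2 Pdx1-only samples, whose deviations mirror each other, so the 4 correlations are not independent. Deviations from the group means were correlated between Pdx1-only and Pdx1-MafA samples of the same culture and number at 0.610 to 0.906. A fit of the 4 conditions with a term for each culture and replicate number called 243 of 23174 genes in edgeR, 121 higher (0.522%) and 122 lower (0.526%), and 83 genes in DESeq2 (0.534%), 57 higher and 26 lower, all of which were among the 243. Only 2 residual degrees of freedom stood behind this fit, and edgeR estimated infinite prior degrees of freedom, so that each gene was given the spread of genes at its level and none of its own. The very small adjusted p values that follow from edgeR with the block rest on that estimate. Where the prior was finite edgeR called far fewer, 7 genes without its legacy setting (prior 6.43) and 8 after a stricter filter on low counts (prior 7.37). Leaving out one pair of samples gave 67 to 351. A block on replicate number in all 12 conditions called none, with a lowest adjusted p of 0.128. The text below therefore gives the values in each sample first and speaks of a gene as risen or fallen where edgeR and DESeq2 both called it with the block. Of these 83 genes, 81 moved in the fitted direction in 4 of 4 pairs, and in 16, 13 higher and 3 lower, the groups did not overlap. The blocked contrast was itself estimated from those 4 pairs. Their agreement, here and for single genes below, therefore follows largely from how the genes were picked and describes them without being separate support. Replicate 3 had no Pdx1-only partner, so it adds nothing to the blocked contrast. Just 4 genes were called in all 4 versions of the blocked fit, Ttr, Krt6a, Clec2e and P2rx2, all of them higher.

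Without the block, where edgeR called no gene, the lowest p among the named genes was that of Gpx3 (chr11:54902453-54910377, GRCm38), which encodes the secreted glutathione peroxidase that reduces peroxides outside the cell. It was at 300.2 and 117 CPM in WT Pdx1-only replicates 1 and 2 and at 362 and 180 CPM in the 6SA ones. With MafA it was at 621, 751 and 1348 CPM in WT replicates 1 to 3 and at 620.1, 730.4 and 1667 CPM in 6SA replicates 1 to 3. All 6 samples lay above the other 4, and the 2 highest were the passage 5 replicates. The fitted log2 fold change was 2.01 ± 0.43 (SE) without the block and 1.61 ± 0.14 with it. Gpx3 was called by edgeR with the block (adjusted p = 3.91e-27) but not by DESeq2 (adjusted p = 0.143).

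Ttr encodes transthyretin, a carrier of thyroxine and retinol-binding protein made in liver, choroid plexus and islets. Its levels without MafA were 2.16 and 3.91 CPM in WT and 2.3 and 7.42 CPM in 6SA replicates 1 and 2. With MafA they were 13.3, 59.3 and 35.6 CPM in WT and 12, 44.6 and 62.3 CPM in 6SA replicates 1 to 3, so that every sample exceeded every Pdx1-only sample. Single pools spread further than their sums, from 0.598 to 30.5 CPM before scaling among the 3 pools of WT Pdx1-MafA replicate 1. Ttr rose by a log2 fold of 2.85 ± 0.28 with the block (adjusted p = 5.59e-20 in edgeR and 1.11e-13 in DESeq2).

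Bmp2 (chr2:133552159-133562885), a secreted ligand of the bone morphogenetic protein pathway, was close to absent without MafA. It stood at 1.26 and 1.12 CPM in WT and 3.08 and 0.112 CPM in 6SA Pdx1-only replicates. With MafA it was at 26.2, 18.8 and 13.2 CPM in WT and 18, 22.3 and 5.71 CPM in 6SA replicates 1 to 3, again without overlap. It rose by a log2 fold of 4.09 ± 0.42 with the block (adjusted p = 3.77e-19 in edgeR and 3.23e-09 in DESeq2), and its pools agreed well, at 23.6 to 28.3 CPM before scaling in the 3 pools of WT Pdx1-MafA replicate 1.

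Clec2e and Olr1, both C-type lectin genes, lie close together on chromosome 6 (chr6:129091998-129100913 and chr6:129485244-129507165). Clec2e belongs to the Clr family of ligands for natural killer cell receptors, and Olr1 encodes LOX-1, a scavenger receptor for oxidized low-density lipoprotein. Clec2e was at 0.811, 0.559, 0.840 and 0 CPM in the 4 Pdx1-only samples and at 16.2, 6.97, 9.39, 16.9, 15.3 and 15 CPM in the Pdx1-MafA samples, WT replicates first. It rose by a log2 fold of 4.67 ± 0.50 (adjusted p = 2.47e-17 in edgeR and 1.93e-09 in DESeq2 with the block). Olr1 was between 0.541 and 1.24 CPM without MafA. With MafA it reached 99.2, 2.96 and 8.91 CPM in WT and 200, 11.1 and 17.1 CPM in 6SA replicates, and the 2 samples of replicate 1 stood far above the rest. Its log2 fold change with the block was 6.41 ± 0.38 (adjusted p = 3.67e-60 in edgeR and 0.0109 in DESeq2).

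Among the rest of the 12 genes with the lowest p for a higher level without the block and a mean of at least 5 CPM, Lancl3, Slc7a7, Krt6b and Nrep rose without overlap between the groups. Lancl3 was at 2.51 to 11.5 CPM without MafA and 20.2 to 71.6 with it. Slc7a7, the light chain of a cationic amino acid transporter, was at 29.1 to 41.6 CPM and 65.8 to 155 CPM. Nrep went from 0.560 to 3.63 CPM to 7.51 to 16.04 CPM. Sytl5, a synaptotagmin-like partner of Rab27, was at 4.47 to 6.55 CPM without and 9.24 to 29.1 CPM with MafA, and did not overlap either, but DESeq2 with the block did not call it (adjusted p = 0.148). Mt2, a metallothionein that binds zinc and copper, rose in 4 of 4 pairs, from 4.39 to 11.8 CPM to 10.7 to 41.2 CPM.

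**Figure D1:**
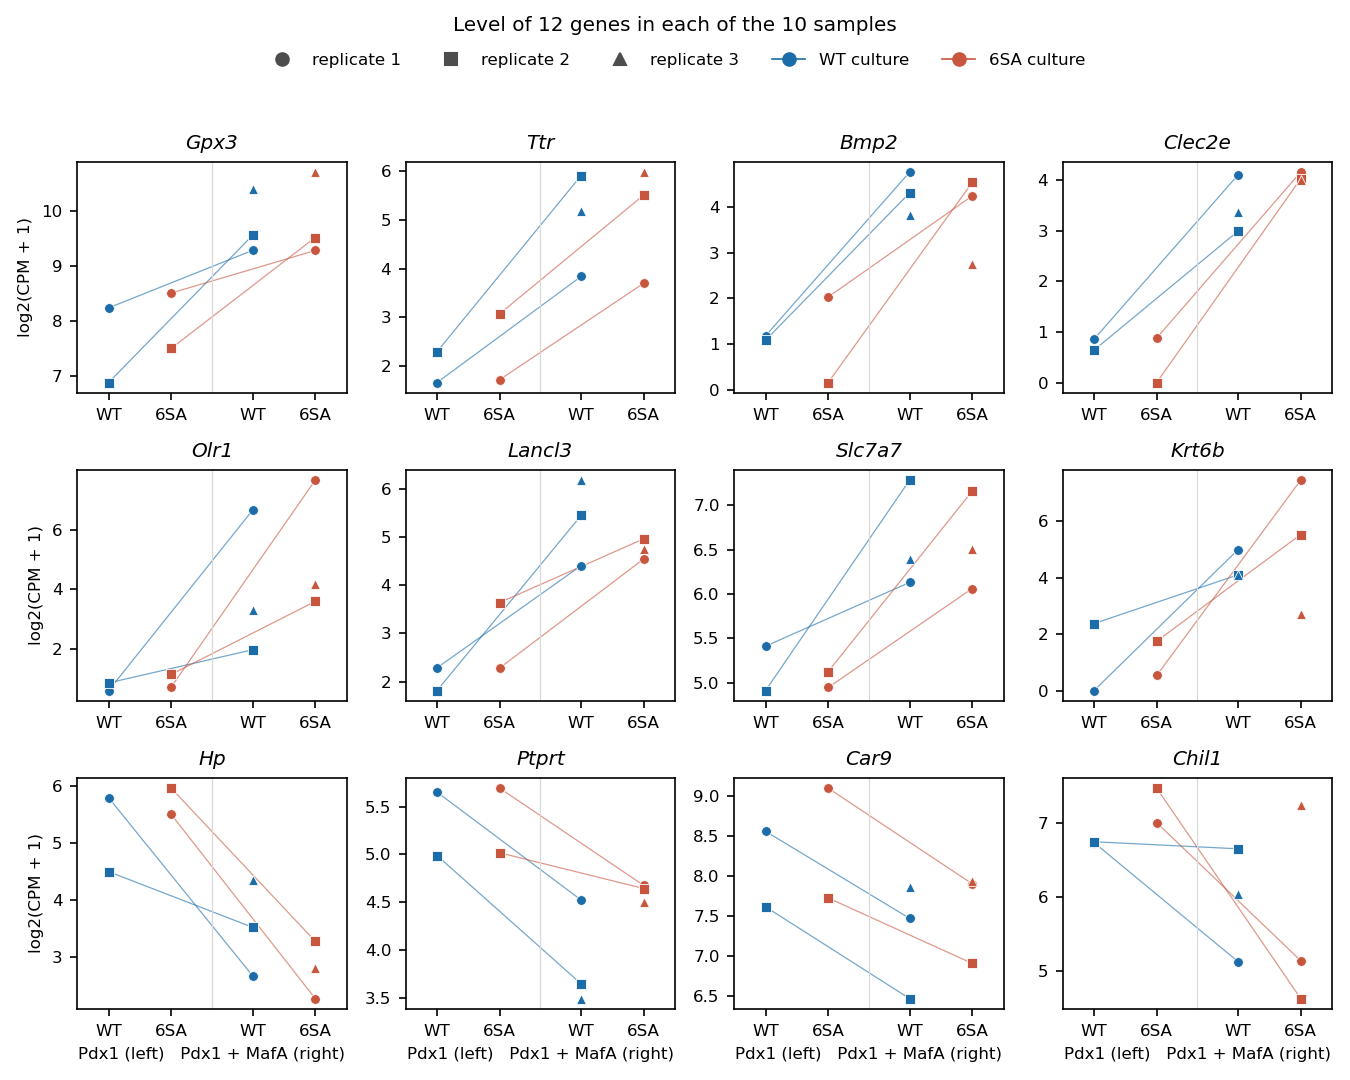
Level of 12 named genes on the log2(CPM + 1) scale in each of the 10 samples, Pdx1-only on the left and Pdx1-MafA on the right of each panel, with lines joining samples of the same culture and replicate number and a separate vertical scale in each panel. The 8 genes from Gpx3 to Krt6b and the genes Hp and Ptprt do not overlap between the groups, whereas Car9 and Chil1 overlap but fall along each of the 4 lines.

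The same 12 genes were looked up among the RefSeq promoters of GRCm38, which run from 250 bases before to 50 bases after the start of transcription. Promoters of 7 of the 12 were in the table. The 7 letters TGCTGAC, the core of a Maf recognition element, were sought on both strands. They stood in 2 of these 7 genes, Clec2e and Sytl5, against 4.67% of all 32851 promoters and 5.28% of all 27025 genes in the table, and in 1 of 10 of the 12 lower genes with a promoter there, Dcun1d4. Among the genes called with the block in edgeR they were in 5 of 78 higher genes (6.41%) and 3 of 102 lower genes (2.94%). The promoters of the pair with a match are printed 5′ to 3′ in the direction of the gene because the match bears on a factor that was added, with that of Gpx3, first of the named genes by p without the block, which has none. Capitals mark the match, which begins at position -137 from the start in Clec2e (chr6:129100854-129101153, minus strand) and at -233 in Sytl5 (chrX:9885371-9885670, plus strand), and the Gpx3 stretch is chr11:54902604-54902903, plus strand.
Clec2e: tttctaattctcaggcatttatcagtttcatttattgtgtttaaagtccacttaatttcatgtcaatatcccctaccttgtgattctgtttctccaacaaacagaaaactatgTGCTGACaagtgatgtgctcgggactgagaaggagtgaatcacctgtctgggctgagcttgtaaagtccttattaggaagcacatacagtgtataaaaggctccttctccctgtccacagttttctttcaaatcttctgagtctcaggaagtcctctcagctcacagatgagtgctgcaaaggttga
Sytl5: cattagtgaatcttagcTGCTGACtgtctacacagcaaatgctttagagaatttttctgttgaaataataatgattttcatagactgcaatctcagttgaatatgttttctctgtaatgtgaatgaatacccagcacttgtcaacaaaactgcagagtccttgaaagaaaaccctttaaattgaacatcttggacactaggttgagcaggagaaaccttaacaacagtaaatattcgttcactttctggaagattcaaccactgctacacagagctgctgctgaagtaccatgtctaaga
Gpx3: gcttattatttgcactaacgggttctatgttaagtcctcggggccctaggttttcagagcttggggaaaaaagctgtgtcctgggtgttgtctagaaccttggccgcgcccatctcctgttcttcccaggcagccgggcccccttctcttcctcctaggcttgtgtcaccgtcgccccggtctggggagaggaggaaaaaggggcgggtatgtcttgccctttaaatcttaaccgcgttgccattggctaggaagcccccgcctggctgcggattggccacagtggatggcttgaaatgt

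Some keratins of stressed and stratified epithelium were among the higher genes. They were gathered, with desmosome and cornified-envelope genes, into a list of 34 after their values had been seen, so the list is a description. Krt6a, which is induced in wounded epidermis, was at 7.84 and 3.07 CPM in WT and 1.40 and 5.17 CPM in 6SA Pdx1-only replicates, and at 24.3, 9.24 and 1.57 CPM in WT and 80.8, 64.7 and 37.0 CPM in 6SA Pdx1-MafA replicates. The 3 samples of the 6SA culture were the highest, and the WT replicate 3 sample lay within the Pdx1-only range. Krt6a rose by a log2 fold of 3.14 ± 0.29 with the block (adjusted p = 3.81e-23 in edgeR and 1.29e-12 in DESeq2). That value is a mean over cultures whose effects differed in edgeR with the block, being larger in 6SA (log2 difference 3.05, adjusted p = 0.000317).

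Krt6b, its neighbour and near-copy (chr15:101676023-101680287), was at 0 to 4.19 CPM without MafA and at 5.57 to 176 CPM with it, and rose by a log2 fold of 5.26 ± 0.32 (adjusted p = 1.71e-55 in edgeR and 0.0141 in DESeq2). Reads shared between these copies could have been split in the counting, so their separate values are uncertain. Krt16 was at 0 to 4.16 CPM without MafA and 60.7 and 185 CPM in the replicate 1 samples with it, but 0.120 to 14.7 CPM in the other 4, and DESeq2 missed it narrowly (adjusted p = 0.0513). Krt17 was at 337 CPM in WT Pdx1-only replicate 1 and at 546 and 854 CPM in the replicate 1 samples with MafA, with 54.0 to 109 CPM in the others, and the replicate 1 samples were the highest of each group. Its WT replicate 2 pair was lower with MafA, at 56.2 CPM without and 54.0 CPM with it. With the block edgeR called Krt17 and DESeq2 did not (adjusted p = 3.42e-09 and 0.999913). Krt14, a basal keratin, passed 5 CPM in 1 sample only, the 6SA Pdx1-MafA replicate 1, at 89.6 CPM.

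Desmosome and cornified-envelope genes were also among those called. Dsp, which encodes desmoplakin, was at 109 to 160 CPM without MafA and 133 to 239 CPM with it, and Pkp1, which encodes plakophilin 1, at 2.79 to 31.4 CPM and 3.97 to 123.04 CPM. Sfn, the 14-3-3σ gene, was at 36.3 to 88.5 CPM and 55.5 to 203 CPM, and Scel, which encodes sciellin of the cornified envelope, at 0 to 7.84 CPM and 2.79 to 42.0 CPM. All 4 rose in 4 of 4 pairs in both tools. Of the 30 members tested, 14 were higher and 1 lower in edgeR with the block, and 6 higher in both tools. The same edgeR fit called 0.522% of all genes higher and 0.526% lower. As the list was drawn up after its values were seen, its count is no test against those shares. The defining basal genes Krt5 and Trp63 were not part of this: Krt5 passed 1 CPM in 1 Pdx1-MafA sample, at 5.42 CPM, and Trp63 in none. Krt19, the duct keratin, also rose, from 760 to 1031 CPM to 567 to 1524 CPM with 4 of 4 pairs higher (log2 fold 0.65 ± 0.13, adjusted p = 0.000117 in edgeR and 0.000356 in DESeq2).

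**Figure D2:**
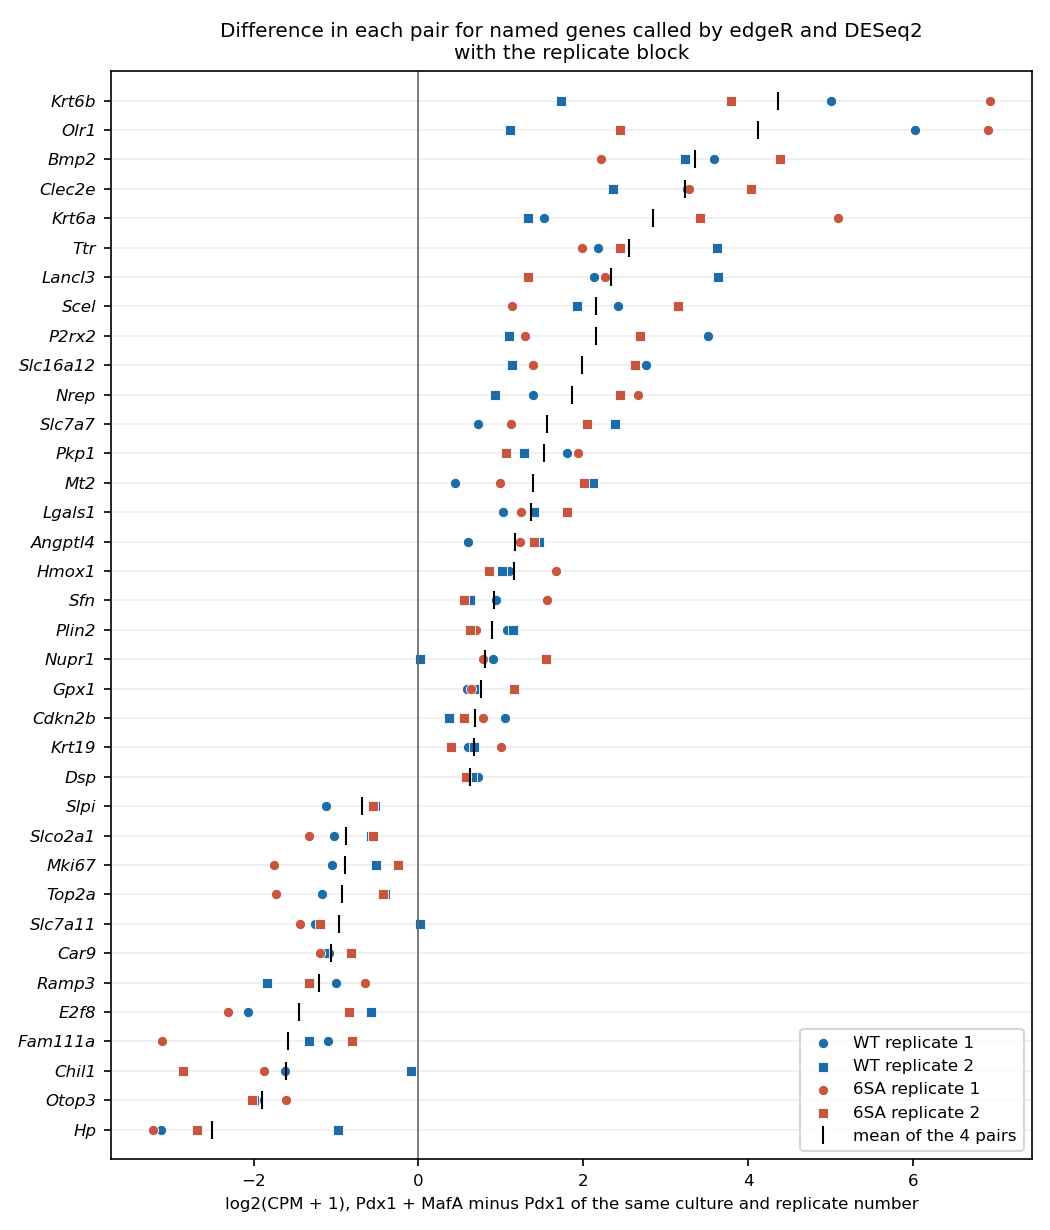
Difference on the log2(CPM + 1) scale between the Pdx1-MafA and the Pdx1-only sample of the same culture and replicate number, for the 36 named genes that edgeR and DESeq2 both called with the block, each point being 1 pair and the black bar the mean of the 4. Krt6b and Olr1 differ most between replicates 1 and 2, whereas the 4 differences of Dsp lie between 0.57 and 0.72.

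Several single genes outside that family rose in both tools, and these too were picked out after their values were seen. P2rx2, an ATP-gated cation channel, was at 15.6, 0.279, 13.2 and 1.35 CPM without MafA and at 187, 1.74, 3.37, 33.8, 14.2 and 10.9 CPM with it, so that its groups overlapped widely and the pairing alone separated them. Slc16a12, a creatine transporter, was at 1.71 to 17.6 CPM and 17.4 to 56.3 CPM, and Lgals1, which encodes galectin-1, at 25.7 to 89.6 CPM and 69.4 to 183 CPM. Hmox1, the haem oxygenase that answers oxidative stress, was at 19.6 to 46.7 CPM and 40.4 to 191 CPM, and Gpx1, the cytosolic glutathione peroxidase, at 533 to 1066 CPM and 796 to 1600 CPM. The lipid-droplet coat gene Plin2 and the lipoprotein lipase inhibitor gene Angptl4 were higher in 4 of 4 pairs, with log2 folds of 0.88 ± 0.15 and 1.15 ± 0.16.

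Hp, Ltf, Pigr, Chil1, Slpi and Dmbt1 are described next, a choice made in part after their values were seen, and DESeq2 with the block called 3 of them. Hp encodes haptoglobin, the scavenger of free haemoglobin. Its levels were 54.2 and 21.5 CPM in WT and 44.1 and 61.0 CPM in 6SA Pdx1-only replicates, and 5.36, 10.5 and 19.3 CPM in WT and 3.83, 8.67 and 6.00 CPM in 6SA Pdx1-MafA replicates. No sample with MafA reached the lowest sample without it. Hp fell by 2.72 on the log2 scale with the block (SE 0.28, adjusted p = 6.65e-19 in edgeR and 1.93e-09 in DESeq2).

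Ltf, the gene of lactoferrin, was the most abundant of these. It was at 3645, 1820, 5723 and 1428 CPM without MafA and at 697, 1424, 358, 2461, 901 and 367 CPM with it, WT replicates first. Each pair was lower with MafA, but the 6SA replicate 1 sample lay within the Pdx1-only range, and edgeR with the block called Ltf where DESeq2 did not (adjusted p = 6.76e-17 and 0.525). Pigr, the receptor that carries polymeric antibodies across epithelium, was at 154, 30.5, 812 and 11.9 CPM without and 7.81, 24.1, 18.1, 72.9, 1.44 and 4.29 CPM with MafA, lower in 4 of 4 pairs and likewise called by edgeR alone (DESeq2 adjusted p = 0.0625). Chil1, a chitinase-like secreted protein, was at 106 to 177 CPM and 23.7 to 152 CPM and fell in both tools, and Slpi, a leukocyte protease inhibitor, at 122 to 230.3 CPM and 82.9 to 163 CPM, fell in both tools as well. Dmbt1, a mucin-like scavenger of the gastrointestinal lining, was at 778 to 1697 CPM and 159 to 894 CPM, with edgeR calling it and DESeq2 not (adjusted p = 0.349).

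Ptprt, a receptor tyrosine phosphatase, had the lowest p without the block of the 12 lower genes named at a mean of at least 5 CPM, none of them called in that fit, and its groups did not overlap, at 30.7 to 50.8 CPM without MafA and 10.2 to 24.5 CPM with it. Its log2 fold change with the block was -1.02 ± 0.24 in edgeR (adjusted p = 0.00464), and DESeq2 did not call it (adjusted p = 0.0533). Car9, a membrane carbonic anhydrase known as a hypoxia marker, was at 375, 194, 545 and 210.0 CPM without MafA and at 176, 87.3, 232, 238, 119 and 244 CPM with it. The pair differences on the log2(CPM + 1) scale were -1.09, -1.15, -1.20 and -0.82, and both tools called it (log2 fold -1.08 ± 0.15, adjusted p = 9.60e-11 in edgeR and 2.80e-10 in DESeq2). Ramp3, a partner of the calcitonin receptor family, the prostaglandin transporter gene Slco2a1 and the proton channel gene Otop3 fell in both tools and in 4 of 4 pairs. Dcaf15, of a CUL4 ubiquitin ligase, and Nsl1, of the kinetochore, were lower in every MafA sample, at 5.86 to 17.6 CPM against 18.4 to 28.5 CPM and at 0.286 to 5.59 CPM against 7.05 to 33.0 CPM, but DESeq2 called neither. Of those 12 lower genes, both tools called Hp and Slco2a1 with the block, and F5, the gene of coagulation factor V, was lower in 2 of 4 pairs only.

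Genes of cell division were lower as a group in the fit, but their levels followed the replicate number first. All 26 mitosis genes had a negative log2 fold change without the block and 24 with it, where 11382 of all 24004 genes were negative, and their median was -0.57 without and -0.47 with the block against 0 for all genes. The summed level of the list was 1159 and 708 CPM in the Pdx1-only replicate 1 samples and 4314 and 3186 CPM in the replicate 2 samples. With MafA it was 604 and 397 CPM in replicate 1, 4671 and 2599 CPM in replicate 2, and 807 and 371 CPM in replicate 3, so the sum was lower in 3 of 4 pairs and higher in the WT replicate 2 pair. Without WT or without 6SA Pdx1-only replicate 2 the unblocked median of the list was 0.08, and without WT or 6SA Pdx1-MafA replicate 2 it was -1.33 or -1.32. Top2a, the topoisomerase of dividing cells, went from 136, 700.2, 118 and 410.1 CPM to 59.9, 530, 69.5, 34.7, 305 and 52.7 CPM, and Mki67, the gene of the Ki-67 antigen, from 66.0, 434, 49.2 and 208 CPM to 31.2, 303, 73.6, 13.9, 175 and 22.9 CPM. Both fell in 4 of 4 pairs and in both tools. Aurkb, Bub1 and Kif11 were called by edgeR with the block alone.

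Of the 30 DNA replication genes, 30 were negative without the block and 27 with it, with medians of -0.55 and -0.33. Without single samples the unblocked median ran from -1.01 to -0.15, so it stayed negative where that of mitosis did not. In edgeR with the block 5 were called lower (Mcm10, Cdc45, Rrm1, Rrm2 and Tk1), and none by both tools. With RLE scaling and no block the medians were -0.59 for mitosis and -0.58 for DNA replication. Among 28 p53 targets and inhibitors of cyclin-dependent kinases, 4 were higher and 1 lower in edgeR with the block. For both lists the share of all genes called in that fit was 0.522% higher and 0.526% lower. Cdkn2b, which encodes p15INK4b, rose in both tools and without overlap, from 106 to 128 CPM to 137 to 264 CPM, and Dram1, an autophagy regulator, fell in both tools and without overlap. Gadd45a, Perp and Pmaip1 were called by edgeR alone, and Cdkn2b and Perp were higher in 4 of 4 pairs.

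**Figure D3:**
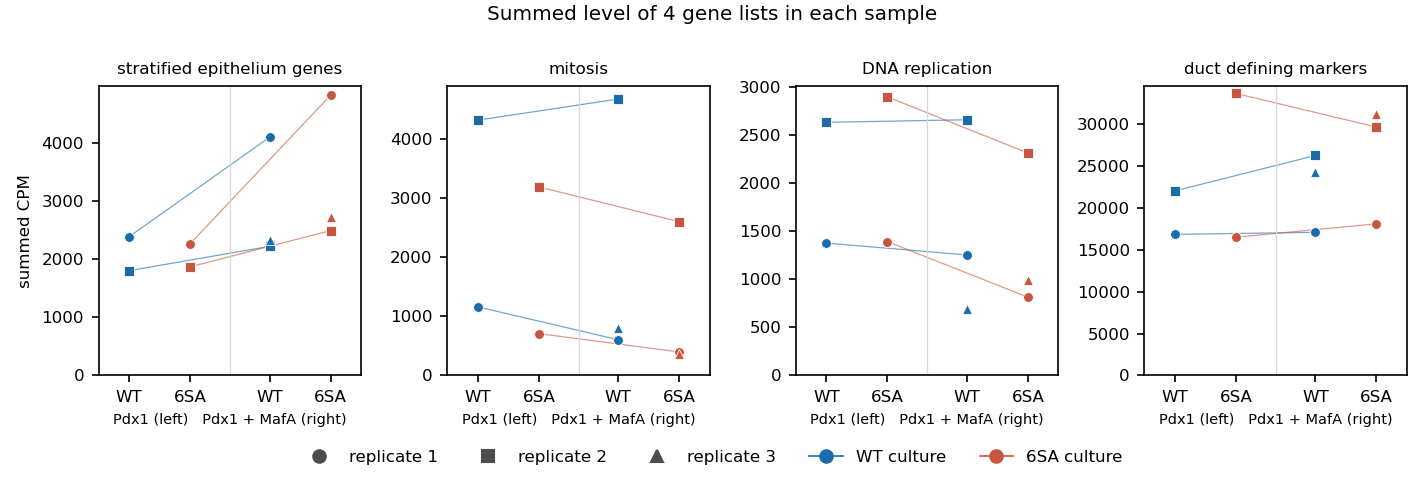
Summed CPM of the members of 4 gene lists in each sample, Pdx1-only on the left and Pdx1-MafA on the right of each panel, with lines joining samples of the same culture and replicate number. The stratified epithelium list (chosen after its values were seen) is higher with MafA along every line, the mitosis list ranges from 371 to 4671 CPM and differs more between replicates 1 and 2 than between groups, and the duct markers are higher with MafA along 3 of the 4 lines and lower along 1.

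Of 25 β-cell genes tested, a list that includes known targets of MafA, none was called in edgeR without the block, and of 22 tested with it 1 was, Ero1lb, an endoplasmic reticulum oxidase of the β-cell, which was lower and not called by DESeq2 with the block. Of all genes, edgeR with the block called 0.522% higher and 0.526% lower. Of all members, 13 of 26 were below 1 CPM in all 10 samples. Slc2a2 (GLUT2) did not pass 2.65 CPM and Slc30a8 was at 0 in every sample. Kcnj11, a subunit of the KATP channel, was at 0 to 0.504 CPM without MafA and 0 to 1.94 CPM with it. DESeq2 without the block called it (adjusted p = 3.01e-06), with counts in 6 samples and none above 33. No member of the endocrine progenitor list or of the list of other islet hormones was called in either fit, and Neurod1, Insm1 and Pax4 were each below 2 CPM throughout.

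Stress and defence lists held few calls. Of 34 genes of the Nrf2 antioxidant response, to which small Maf proteins belong as partners, Hmox1 rose and Slc7a11, the cystine transporter, fell in both tools, and Gstm1 was lower in edgeR alone. The median of the list was 0.08 without and 0.06 with the block. Slc7a11 was lower in 3 of 4 pairs and level in the WT replicate 2 pair, at 54.5 and 55.2 CPM. Of 29 genes of the NF-kB and inflammatory list tested with the block, 3 were lower in edgeR (Pigr, Ltf and Reg3g) and none in both tools, with 19 of 29 negative. The interferon list held 1 call, Cxcl10, and its level of 464 CPM in 6SA Pdx1-MafA replicate 2 stood alone among values of 1.12 to 35.5 CPM. None of 28 genes of endoplasmic reticulum stress and folding and none of 25 Notch and Wnt targets was called by either tool. Duct transcription factors gave no call among 20, and duct ion and fluid transport genes gave Car9, in both tools, and the chloride transporter Slc26a9, in edgeR alone, both lower. These counts stand against 0.522% of all genes called higher and 0.526% called lower in the same fit.

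**Figure D4:**
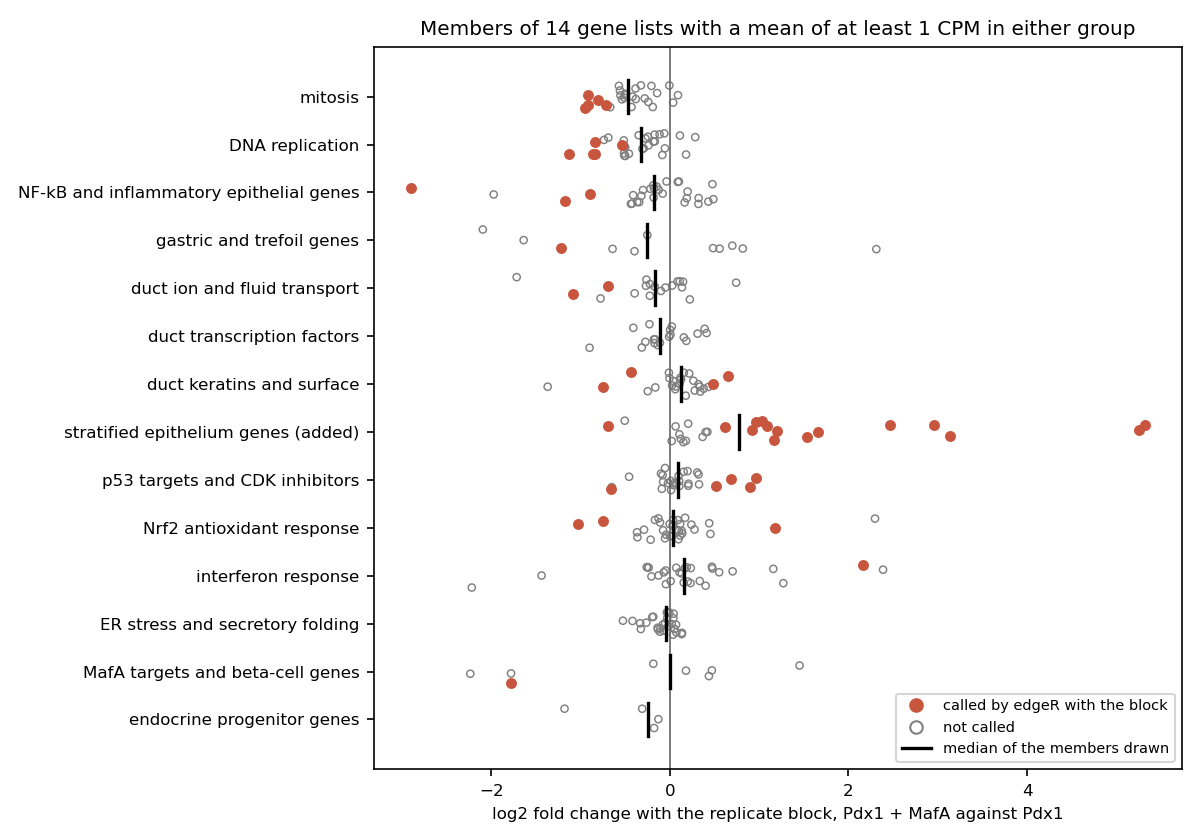
Log2 fold change with the replicate block for members of 14 gene lists that had a mean of at least 1 CPM in either group, with a black bar at the median of the members drawn and filled points for members called by edgeR with the block. Filled points lie mostly to the right in the stratified epithelium list, which was chosen after its values were seen, and to the left in the mitosis and DNA replication lists.

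The effect of MafA was then compared between the WT and 6SA cultures, in which the cells carried no Ngn3 reporter. Without the block no gene was called in edgeR (0 called in WT, in 6SA and for their difference, with 400 genes at an unadjusted p below 0.05 for the difference, and 8 called by DESeq2). With the block edgeR called 29 genes for the difference (0.125%) and DESeq2 called 1. Of the 5 genes with the lowest p for the difference without the block, at a mean of at least 5 CPM, most turned on a single sample. Ccl5, Ifit1 and Krt14 of these were also among the 29 called with the block. So were Krt6a, Krt17 and Chil1, described above as means of the cultures. Their 6SA minus WT differences with the block were 3.05, 1.48 and -1.54 (adjusted p = 0.000317, 0.00442 and 0.00653 in edgeR). Ccl5 was at 54.0 CPM and Ifit1 at 58.2 CPM in 6SA Pdx1-MafA replicate 2, while no other sample passed 0.180 and 2.79 CPM. Krt14 was at 89.6 CPM in 6SA Pdx1-MafA replicate 1 against at most 3.52 CPM elsewhere. Slc7a2, a cationic amino acid transporter gene, was at 1.44 and 1.96 CPM in WT without MafA and 7.32 to 12.5 CPM with it, and at 4.05 and 4.87 CPM in 6SA without and 1.59 to 5.89 CPM with it, and the difference of -2.73 in log2 fold change did not pass (adjusted p = 0.999991). Mto1, which modifies mitochondrial transfer RNA, was also short of the threshold in both fits. The log2 fold changes in WT and 6SA were 2.12 ± 0.62 and 1.89 ± 0.61 (SE) for Gpx3, 3.60 ± 1.05 and 3.04 ± 1.00 for Ttr and 4.0 ± 1.25 and 3.19 ± 1.15 for Bmp2.

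Samples with the MafA reporter alone, 5 in number, gave a further set of levels for the same genes and are described without a test. Clec2e was at 7.61 to 70.1 CPM there and Ttr at 10.8 to 44.4 CPM, all above the 4 Pdx1-only samples, and Olr1, at 1.29 to 13.8 CPM, likewise. Gpx3 was at 206 to 737 CPM and overlapped the Pdx1-only samples, as did Bmp2 at 0 to 17.7 CPM and Hp at 4.93 to 76.0 CPM. Ltf, at 334 to 1246 CPM, lay below all 4.

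The same step was present beside Ngn3, in 5 samples with all 3 factors and 6 with Ngn3 and Pdx1, and the contrasts share no sample. In edgeR without the block 451 of 24004 genes were called for MafA beside Ngn3. The effect of MafA differed from that without Ngn3 for 19 genes (0.0792%), 17 of them more negative beside Ngn3. Btc, which encodes the EGF-family ligand betacellulin, was at 21.3 to 39.7 CPM with Pdx1, 28.8 to 43.9 CPM with Pdx1 and MafA, 10.9 to 45.4 CPM with Ngn3 and Pdx1 and 1.48 to 8.51 CPM with all 3 factors. The log2 effect of MafA was 0.34 ± 0.37 (SE) without Ngn3 and -3.25 ± 0.40 beside it, a difference of -3.59 ± 0.55 (adjusted p = 0.00529). Syt8, a synaptotagmin, and Lbp, the lipopolysaccharide-binding protein, had the same form, with effects of 0.26 and -0.18 without Ngn3 and differences of -7.64 and -3.82. Dmbt1 was at 1.05 CPM (median of 5) with all 3 factors, and its effects were -1.22 ± 0.67 without and -8.00 ± 0.99 beside Ngn3. These calls depended on the 4 Pdx1-only samples: leaving out any one of them, WT replicate 1 or 2 or 6SA replicate 1 or 2, left 0 genes called, with lowest adjusted p values of 0.0549 to 0.0864.

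Slc26a9 and Dram1, named above as lower in edgeR with the block, were also among the 19, with differences of -5.35 and -3.22 (adjusted p = 0.0440 and 0.0458 in edgeR). None of the 12 higher and 12 lower genes named by their p without the block was among them. Clec2e had log2 effects of 4.49 ± 1.15 without and 4.5 ± 1.22 beside Ngn3. For Gpx3 they were 2.01 ± 0.43 and -0.17 ± 0.38, a difference of -2.17 ± 0.57 that did not pass (adjusted p = 0.187), with 91.4 to 185 CPM in the samples with all 3 factors. For Ttr they were 3.32 ± 0.72 and 1.22 ± 0.59 (difference adjusted p = 0.588), and for Ptprt -1.13 ± 0.34 and 0.89 ± 0.32 (difference adjusted p = 0.104).

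**Figure D5:**
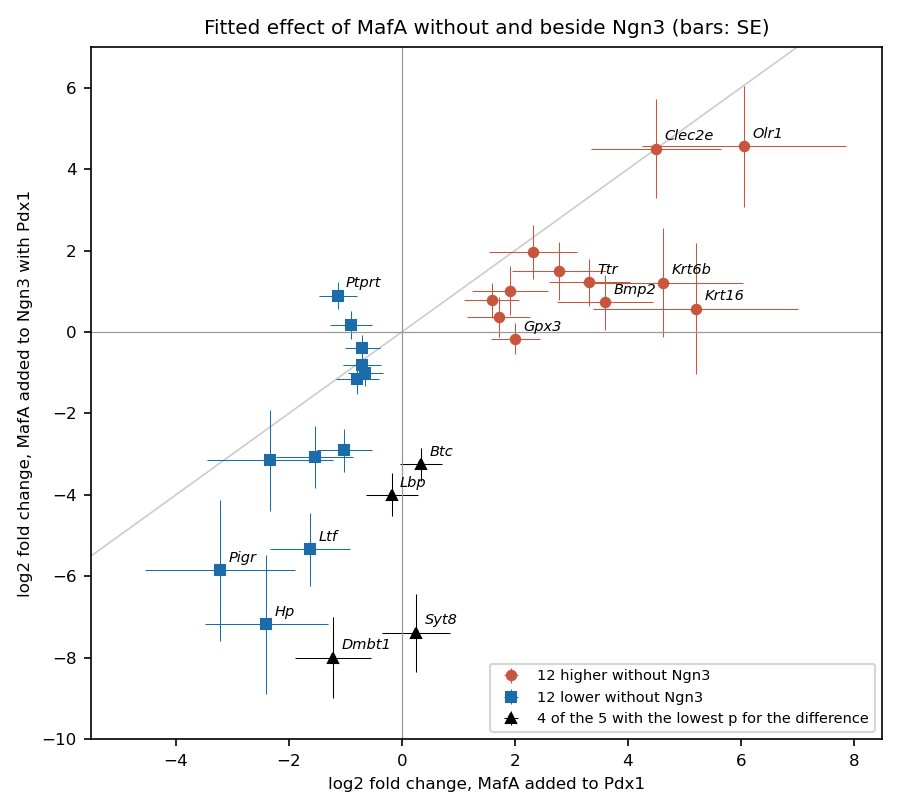
Fitted log2 fold change for MafA added to Ngn3 with Pdx1 (vertical) against MafA added to Pdx1 (horizontal) for the 12 higher and 12 lower genes with the lowest p and 4 of the 5 genes with the lowest p for the difference, with bars for 1 SE and a grey line of equality. Clec2e lies on the line, whereas Btc, Lbp and Syt8 lie near 0 on the horizontal axis and at -3.25 to -7.39 on the vertical one.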

How the data were processed

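RNA was sequenced as single-end reads from pools of 50 cells. The authors aligned reads with GSNAP 2015-09-29 to mm10, assigned them to Ensembl 81 genes with HTSeq 0.5.3p3 and deposited raw counts per gene and library, technical repeats separate. Whether counting used strand is not given in the sources used here, so overlapping genes are uncertain. Libraries with over 1000000 gene counts, under 25% spike-ins and over 10000 genes were kept (58 of 61, and all 20 used here), and repeats were summed. The 24004 genes tested had counts in 5 or more libraries and a log2(CPM + 1) variance over 0.001. CPM uses TMM-scaled library sizes except for single pools. Of 46078 genes, 45229 had a symbol in GENCODE M21, from which positions come.

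edgeR 4.0.16 in R 4.3.3 (TMM, quasi-likelihood test, legacy setting, Benjamini-Hochberg, threshold 0.05) fitted 12 conditions, and WT and 6SA contrasts were averaged. Same-numbered samples deviated together (correlations of 0.805, 0.610, 0.906 and 0.819 over the 5000 genes with the highest mean CPM). A term for each culture and number was therefore also fitted in the 4 conditions compared, with DESeq2 1.42.0 beside edgeR. Single values used an exact permutation test over 100 arrangements. The scripts were tested on counts simulated with 200 changed genes and no replicate effect. Without the block edgeR called 143 genes, 5 of them unchanged, and DESeq2 called 199, 47 of them unchanged. With the block within culture edgeR called 106, 1 of them unchanged, and recovered 23% of 4-fold and 82% of 16-fold changes. DESeq2 with that block was not simulated. Named genes were Mafa, Pdx1, Neurog3, the hormones, list members past the threshold, the 12 higher and 12 lower genes with the lowest p at a mean of 5 CPM or more, and the 5 with the lowest p for each difference; other genes were added after their values were seen, and results for some genes are not reported here. Members and lists were chosen with earlier results of these data known. Intervals of detection cover counting error only.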

Additional observations from a re-analysis of the deposited data

Results flagged for a closer look

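Among the 48 groups of 4 to 6 samples of named genes tested for a sample far from the others, 1 stood out: Nrep in 6SA Pdx1-MafA replicate 2, at 16.04 CPM against 7.51 to 9.87 CPM in the other 5 samples with MafA. Chance alone marks about 1 in 20 such groups.

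The effect of MafA differed between cells with and without Ngn3 by a test of the difference in the 4 genes given here, all more negative beside Ngn3. The log2 differences were -3.59 for Btc, -7.64 for Syt8, -6.78 for Dmbt1 and -3.82 for Lbp, with adjusted p of 0.00529, 0.00529, 0.0131 and 0.0271 in edgeR. Over 19 alternatives each gene's adjusted p was at most 0.0864, 0.0864, 0.150 and 0.214. Levels with all 3 factors were low in each, with medians of 2.93 CPM for Btc, 0 for Syt8, 1.05 for Dmbt1 and 8.64 for Lbp.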

How the results depend on the processing

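In edgeR without the block no gene was called for the mean of the cultures under other scaling, stricter filtering, the legacy setting off, all or single technical repeats, passage 2 alone, a block on replicate number in all conditions or the loss of any 1 sample. The pairing within culture changed this, and every fit that combines it with another choice was chosen after seeing the data. For the mean of the cultures, WT, 6SA and their difference, the replicate block within culture called 243, 90, 155 and 29 genes, with RLE scaling 248, 93, 145 and 30, at passage 2 alone 239, 96, 161 and 32, and in DESeq2 83, 24, 42 and 1. For the mean alone it called 8 with filterByExpr and 7 with the legacy setting off, both with a finite prior in place of an infinite one. Without WT replicate 1, WT replicate 2, 6SA replicate 1 or 6SA replicate 2 in both groups, that block called 351, 318, 67 and 144 genes for the mean, 414, 112, 51 and 58 for WT, 240, 209, 50 and 78 for 6SA, and 366, 28, 24 and 17 for their difference. Without the block, DESeq2 called 13, 7, 9 and 8 and no gene filter 28, 21, 20 and 12. The cause of these differences was not tested.

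The 19 genes whose effect differed with Ngn3 became 224 in DESeq2, 35 with the legacy setting off, 542 with no gene filter, 3 at passage 2 alone, 54 with the replicate block, and 0 to 17 without single samples. The log2 change of Pdx1, -0.11 and never called, was 0.20 with the replicate block within culture (0.20 with RLE scaling, with filterByExpr and at passage 2, 0.21 in DESeq2, 0.12 with the legacy setting off), 0.46 with the block in all conditions, 0.10 at passage 2 alone, -0.39 to 0.37 without single samples, and 0.33, 0.10, 0.41 and 0.0069 with the block and without those same pairs in that order.

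Low counts limit the hormones and Mafa: 3 counts were 0.168 to 0.838 CPM in the samples compared.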
